A study of Mus musculus with 2 samples.

Results

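The transcripts described here encode the TGF-β ligands Tgfb1, Tgfb2 and Tgfb3, the signalling receptors Tgfbr1 and Tgfbr2, the latency protein Ltbp1, the feedback inhibitors Smad7 and Skil, and Tgfbi, an extracellular matrix protein named for its induction by TGF-β. These 9 genes were taken by symbol from the 31053 gene identifiers listed in both libraries. They were measured in organoids of normal urothelium, the lining of the bladder, grown in Matrigel from wild type C57BL/6 mice aged 8 to 10 weeks. Proliferative organoids (P) stayed in complete medium, which contains EGF, Noggin, LY2157299, WNT3A and RSPO1. LY2157299 blocks the kinase of the TGF-β type I receptor. Differentiated organoids (D) began in that medium and were then moved to one without these 5 factors. Each condition was represented by 1 single-cell library made with the 10x Genomics 3′ chemistry, so the differences below were not checked against replicates and no p-value was computed. All 5 factors were withdrawn together, and the effect of losing LY2157299 cannot be told apart from that of losing the other 4.

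TGF-β ligands are secreted as inactive complexes that LTBP proteins hold in the matrix and that integrins or thrombospondin can release. The active ligand binds the type II receptor, which recruits and activates the type I receptor, and this kinase phosphorylates Smad2 and Smad3, which enter the nucleus with Smad4. Smad7 and Skil are induced by the pathway and restrain it, and in many epithelia TGF-β signalling is known for slowing the cell cycle.

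The P library held 6818 cells that passed the filter (over 800 genes detected and at most 12% mitochondrial UMIs) of 8194 barcodes, and the D library 4896 of 6975. These cells carried 26681469 UMIs (unique molecular identifiers, 1 for each captured RNA molecule) in P and 20305621 in D. Levels are given as UMIs per 1000000 UMIs of the library (CPM) with exact Poisson 95% intervals, which cover counting error only. Because transcripts were counted from their 3′ ends, with no correction between genes, levels are compared for each gene across samples and not between genes. A ratio counts as different when it reaches 2-fold in a gene with 100 or more UMIs in P and D together. The median log2 ratio of D over P was +0.42 on this scale over 8939 genes that had 100 UMIs or more in P and in D, while the part of all UMIs from ribosomal protein genes was 37.5% in P and 21.4% in D. Ratios are therefore also given with this shift removed. Of the kept cell barcodes, 6 occurred in both libraries.

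Smad complexes bind CAGAC elements, and promoter sequence is shown for the genes that differed most between the libraries in each direction, Ltbp1 and Tgfbi, and for the receptor Tgfbr2. Each run is the 250 bases before a start site in the RefSeq annotation (GRCm38.p6), written from 5′ to 3′ on the strand of the gene, with CAGAC or its reverse complement GTCTG in capitals.
Ltbp1, first start site (chr17:75005279-75005528, plus strand): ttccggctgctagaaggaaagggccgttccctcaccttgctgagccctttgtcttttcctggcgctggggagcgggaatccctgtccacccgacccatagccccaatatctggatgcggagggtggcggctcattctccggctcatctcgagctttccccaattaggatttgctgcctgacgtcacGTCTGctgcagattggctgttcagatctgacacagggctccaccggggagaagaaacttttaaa
Ltbp1, second start site (chr17:75178531-75178780, plus strand): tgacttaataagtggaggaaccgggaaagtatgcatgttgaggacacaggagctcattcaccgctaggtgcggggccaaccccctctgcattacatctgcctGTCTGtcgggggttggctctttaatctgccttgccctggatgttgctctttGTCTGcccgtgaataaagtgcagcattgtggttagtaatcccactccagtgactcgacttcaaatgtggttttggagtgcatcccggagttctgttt
Tgfbr2 (chr9:116175364-116175613, minus strand): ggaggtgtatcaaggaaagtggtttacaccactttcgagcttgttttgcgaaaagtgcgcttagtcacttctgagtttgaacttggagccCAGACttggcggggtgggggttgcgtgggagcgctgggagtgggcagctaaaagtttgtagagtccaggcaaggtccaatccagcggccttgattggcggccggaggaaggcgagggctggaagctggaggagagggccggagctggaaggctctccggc
Tgfbi (chr13:56609336-56609585, plus strand): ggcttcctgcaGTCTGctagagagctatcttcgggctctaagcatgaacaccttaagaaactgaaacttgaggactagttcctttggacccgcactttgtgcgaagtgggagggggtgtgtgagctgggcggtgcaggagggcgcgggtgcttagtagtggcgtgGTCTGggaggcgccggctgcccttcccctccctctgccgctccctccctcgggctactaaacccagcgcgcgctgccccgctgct
Start site windows of 300 bases (250 before and 50 after the start) were found for 6 of the 9 genes, with none for Tgfb3, Smad7 and Skil. The motif occurred in 6 of their 8 windows, those of Tgfb2, Tgfbr2, Ltbp1, Tgfbi and 1 of the windows of Tgfbr1, against 49.6% of 32851 windows over all genes. The motif was not in the window of Tgfb1. The palindrome GTCTAGAC was in none of the 8 and in 0.213% of all windows. Ltbp1 and Tgfbi, which differed in opposite directions, both carried the motif.

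Of the 9 genes, 8 reached 100 UMIs. Receptors, feedback inhibitors and the latency protein were higher in D and Tgfbi was higher in P, whereas the ligands Tgfb1 and Tgfb2 stayed below 2-fold. At the 2-fold threshold 5 genes were higher in D (Tgfbr1, Tgfbr2, Smad7, Skil and Ltbp1), a direction shared by 13.5% of the 10719 genes tested, and 1 was higher in P (Tgfbi), as were 4.73% of all genes tested. With the shift removed, Smad7, Ltbp1 and Tgfbi remained past 2-fold, while Tgfbr1, Tgfbr2 and Skil lay below it, and 5.64% and 8.65% of all genes were higher in D and in P. No member changed direction under this scaling. Since UMIs are summed over cells, more cells of a kind and more RNA per cell cannot be told apart in these values, and levels within clusters follow.

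**Figure D1:**
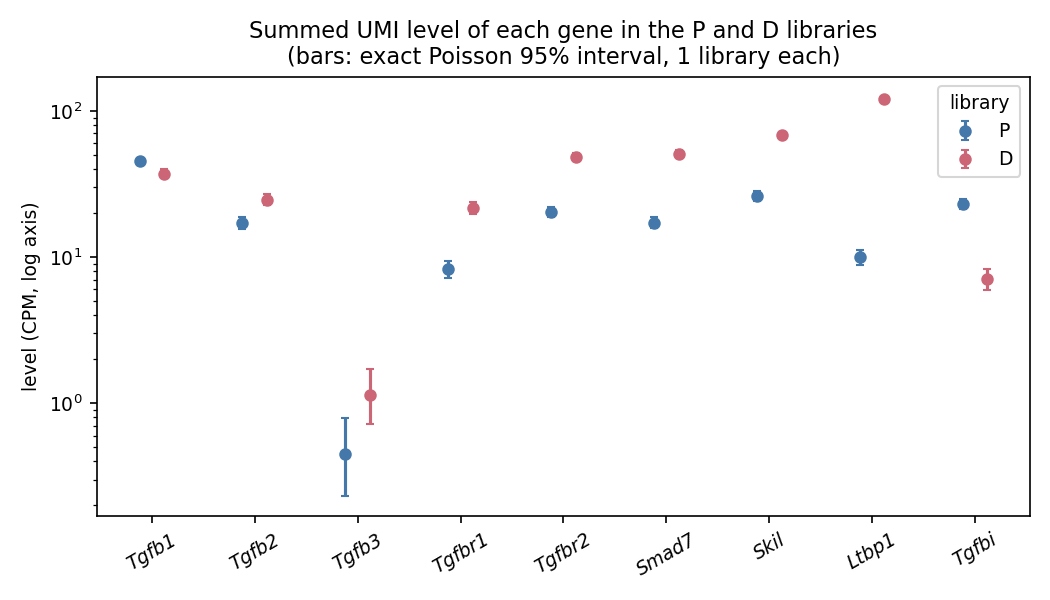
Level of each gene in P (blue) and D (red) in CPM on a log axis, with exact Poisson 95% intervals and 1 library per condition. Ltbp1 was at 9.97 CPM in P and 119.9 CPM in D and Tgfbi lay at 23.0 in P and 7.04 in D, while the intervals of Tgfb3, with 12 and 23 UMIs, were the widest.

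Tgfb1, the ligand most widely expressed in adult tissues, had 45.2 CPM (42.6 to 47.8) in P and 37.2 CPM (34.6 to 40.0) in D. Its log2 ratio of D over P was −0.28 (−0.41 to −0.15), and −0.70 with the shift removed. Tgfb2 had 17.0 CPM (15.5 to 18.7) in P and 24.7 CPM (22.6 to 27.0) in D. Its log2 ratio was 0.54 (0.35 to 0.73), of which 0.12 was left with the shift removed, so its place relative to the median gene hardly differed. Tgfb3 was close to the limit of detection, with 12 UMIs in P and 23 UMIs in D, below the minimum for a call. Its log2 ratio was 1.33 (0.27 to 2.47), past 2-fold, and it was called only when the minimum was lowered to 20 UMIs. Among the UMIs of the 3 ligands, Tgfb1 accounted for 72.1% (69.9 to 74.3%) in P and 59.0% (56.3 to 61.7%) in D. Tgfb2 made up 27.2% (25.05 to 29.4%) in P and 39.2% (36.5 to 41.9%) in D, a shift of the ligand mix that does not depend on library scaling. With no correction between genes, only the change of each share between the libraries can be read, not the mix itself. Tgfb2 and Tgfb3 overlap annotated genes on the opposite strand.

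Both receptor chains were higher in D. Tgfbr1 (chromosome 4, 47353222 to 47414931, GRCm38, protein-coding), the type I receptor and the target of LY2157299, had 8.28 CPM (7.23 to 9.45) in P and 21.7 CPM (19.7 to 23.8) in D. Tgfbr2 (chromosome 9, 116084293 to 116175360), the ligand-binding type II receptor, had 20.3 CPM (18.6 to 22.1) in P and 48.1 CPM (45.1 to 51.2) in D. Their intervals did not overlap between the libraries. The log2 ratios were 1.39 (1.15 to 1.63) for Tgfbr1 and 1.24 (1.09 to 1.40) for Tgfbr2, and 0.97 and 0.82 with the shift removed.

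Ltbp1 (chromosome 17, 75005568 to 75392512), which tethers latent TGF-β to the matrix, differed most, with 266 UMIs in P and 2435 UMIs in D. Its level was 9.97 CPM (8.81 to 11.2) in P and 119.9 CPM (115.2 to 124.8) in D, a difference of 12.03-fold (10.6 to 13.7). The log2 ratio of 3.59 (3.41 to 3.78) was 3.17 with the shift removed. Gm6276 overlaps Ltbp1 on the same strand, so reads in the shared stretch may be split.

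Both feedback inhibitors were higher in D. Smad7 (chromosome 18, 75367529 to 75395935), which blocks the type I receptor, had 17.2 CPM (15.7 to 18.9) in P and 50.4 CPM (47.3 to 53.6) in D. Skil (chromosome 3, 31095058 to 31122577), whose product SnoN represses Smad target genes, had 26.0 CPM (24.1 to 28.1) in P and 68.5 CPM (64.9 to 72.1) in D. Neither pair of intervals overlapped. The log2 ratios were 1.55 (1.39 to 1.71) for Smad7 and 1.39 (1.26 to 1.53) for Skil, and 1.13 and 0.97 with the shift removed.

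Tgfbi (chromosome 13, 56609523 to 56639562) went the other way despite its name, with 23.0 CPM (21.2 to 24.9) in P and 7.04 CPM (5.94 to 8.30) in D. It was 3.26-fold higher in P, a log2 ratio of −1.71 (−1.98 to −1.44), and −2.13 with the shift removed.

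Early-response transcripts, which respond to cell dissociation and stress, were also higher in D. All 12 genes of that list were detected in both libraries, and their summed level was 1293 CPM in P and 2852 CPM in D. In the 4545 cells of P and 1312 of D whose early-response share was at or under the median over both, the log2 ratio was 1.09 for Tgfbr1, 1.32 for Smad7, 1.09 for Skil, 1.25 for Tgfbr2 and 3.49 for Ltbp1. The first 3 lay below the interval of their ratio in all cells. Each of the 5 was above 2-fold on the CPM scale, without the shift removed. With it removed, Tgfbr1, Tgfbr2 and Skil were below 2-fold in all cells already, and shifted values for this cell set are not given. The part of early-response transcripts in these differences was not tested.

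The share of cells with a transcript differed in the same order as the levels. To compare shares at equal depth, each cell was thinned to 2100 UMIs, which kept 6638 cells of P and 4417 cells of D. The median depth of the kept cells before thinning was 3405.5 UMIs in P and 3227.5 UMIs in D. An Ltbp1 UMI was then found in 1.91% of cells (exact binomial 95% interval 1.60 to 2.27%) in P and 21.1% (19.9 to 22.4%) in D, against 3.71% and 34.2% without thinning. Smad7 was found in 3.62% (3.18 to 4.09%) of P and 10.0% (9.14 to 10.9%) of D cells, against 6.44% and 17.4% without thinning. For Skil the shares were 5.05% (4.53 to 5.60%) and 12.7% (11.8 to 13.7%), against 9.37% and 23.2%. The receptors showed the same order, with Tgfbr2 in 4.20% and 9.49% and Tgfbr1 in 1.66% and 4.05% of thinned cells, against 7.41% and 16.5%, and 3.15% and 8.19%, without thinning. Tgfbi was found in 5.23% (4.70 to 5.79%) of P and 1.22% (0.920 to 1.59%) of D cells, against 7.76% and 2.59%. The ligands differed less, at 9.08% and 7.27% for Tgfb1 and 3.74% and 5.12% for Tgfb2. No cell type known to lack these genes was present as a reference for free RNA, so the lowest thinned share in any cluster is given instead. It was 1.31% for Tgfbr1 and 3.41% for Smad7 in P cluster 1, 2.06% for Tgfbr2 in P cluster 2, 2.97% for Skil in P cluster 3, 6.09% for Tgfb1 in D cluster 2 and 1.23% for Tgfb2 in P cluster 1. Most positive cells held 1 UMI: of the 1676 unthinned D cells with Ltbp1, 504 held 2 or more and 20 held 5 or more, up to 14.

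**Figure D2:**
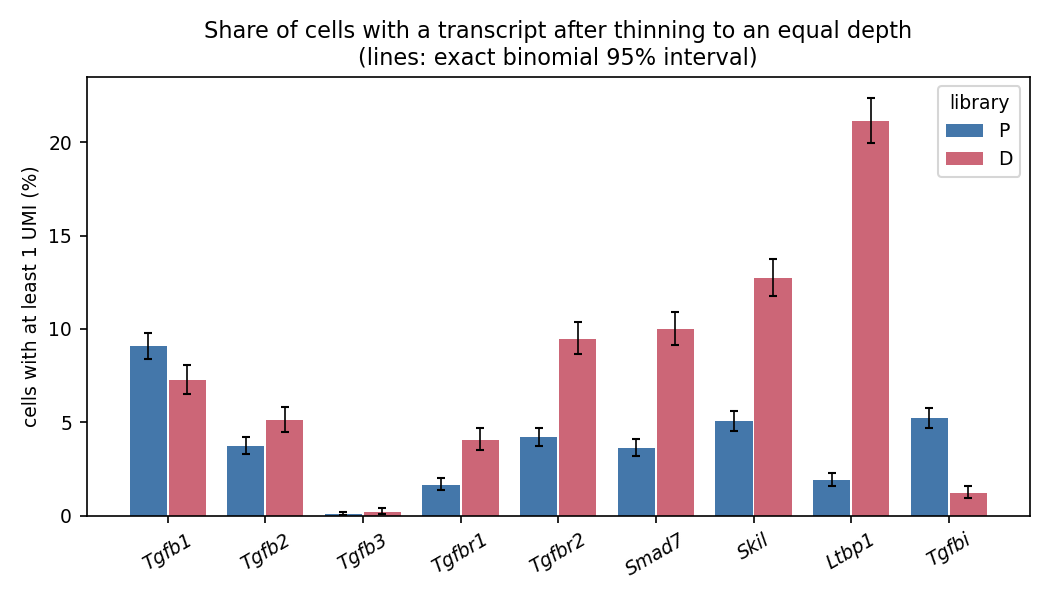
Share of cells with at least 1 UMI of each gene in P (blue) and D (red) after thinning to 2100 UMIs, in percent, with exact binomial 95% intervals. Ltbp1 stood at 1.91% and 21.1%, and Tgfbi at 5.23% and 1.22%, the reverse order.

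To locate the transcripts within the organoids, cells of each library were clustered without the TGF-β genes. Clusters are called by number and by their leading genes. In P, cluster 0 (2590 cells, led by Ctla2a, Nbl1, Dll1, Dlk2 and Ptprz1) had the highest summed level of basal markers, 8484 CPM, cluster 1 (2542 cells) was led by Sprr3, Cnfn, Sprr2f, Psca and Rptn, cluster 2 (1335 cells) by Fmo2, Slc7a11, Agr2, Ifitm1 and Jag1, and cluster 3 (351 cells) by the cell cycle genes Hmmr, Ccna2, Nusap1, Ccnb1 and Aspm. In D, cluster 0 (2816 cells) was led by Krt1, Agr2, AC135964.2, Lgi2 and Reg1, cluster 1 (1308 cells) by Cav1, Acta2, Ms4a10, Htra1 and Tns1, and cluster 2 (772 cells) by Ifit1bl1, Ankrd1, Ppbp, Krt23 and Ly6g6c. Basal markers were highest in D cluster 1, at 16820 CPM, and luminal markers in D cluster 2, at 3784 CPM against 69.2 in D cluster 1. A cluster number in P does not correspond to the same number in D.

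Tgfb2 and Tgfbi were highest in the cluster with the most basal markers of each library, P cluster 0 and D cluster 1. Tgfbi was at 56.5 CPM (51.4 to 62.0) in P cluster 0, 39.1 in cluster 3, 12.1 in cluster 2 and 3.90 in cluster 1, and all these neighbours were separated by their intervals. In D it was at 29.0 CPM (24.0 to 34.7) in cluster 1 and at 1.75 and 0.716 in clusters 0 and 2, whose intervals overlapped. Of the 143 Tgfbi UMIs in D, 119 lay in cluster 1. Tgfb2 was at 35.2 CPM (31.2 to 39.6) in P cluster 0, 21.5 in cluster 3, 13.2 in cluster 2 and 6.44 in cluster 1, with overlapping intervals only for clusters 3 and 2. In D it was at 74.3 CPM (66.2 to 83.1) in cluster 1, 23.6 in cluster 2 and 8.16 in cluster 0, all separated. Tgfb1 showed no such gradient, since it lay between 37.9 CPM and 54.9 CPM over the P clusters and between 30.9 and 41.3 CPM over those of D. Its lowest level in P was in cluster 1. Of 23 Tgfb3 UMIs in D, 16 were in cluster 2.

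Set against the other cells of P, cluster 0 had a log2 ratio of 2.67 (2.41 to 2.93) for Tgfbi and 1.91 (1.63 to 2.192) for Tgfb2, and these were the 2 genes past 2-fold of 8 with enough UMIs, in a contrast where 5.27% of all genes tested were higher. Tgfbr2, at 0.79 (0.54 to 1.04), and Ltbp1, at 0.61 (0.24 to 0.98), were next. At resolution 0.4, where the basal-side cluster of P held 1723 cells, the ratios were 1.22 for Tgfbi and 1.44 for Tgfb2. In D the rule for the basal-side cluster left out cluster 1, because it was highest in proliferation markers at 118 CPM (P cluster 3 had 3661 CPM), and so took D cluster 0. There Tgfb2 and Tgfbi were lower than in the other cells of D, by log2 ratios of −2.58 and −3.07, in a contrast where 3.61% of genes were lower. D cluster 1, chosen for its basal markers after the data were seen, had log2 ratios of 4.29 (3.65 to 4.99) for Tgfbi and 2.61 (2.35 to 2.88) for Tgfb2, and 5.99% of genes were higher there. Tgfbr2 reached 0.98 (0.79 to 1.18), Smad7 0.82 (0.62 to 1.01) and Skil 0.72 (0.55 to 0.89) over the other D cells, and Ltbp1 and Tgfbr1 0.37 each.

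The feedback inhibitors had overlapping intervals over the clusters of P and separate ones over those of D. Smad7 lay between 15.8 CPM and 24.6 CPM over the 4 clusters of P, and Skil between 20.8 CPM and 27.8 CPM. The log2 ratio of the highest over the lowest P cluster was 0.64 (0.11 to 1.15) for Smad7 and 0.41 (−0.10 to 0.98) for Skil. In D it was 1.11 (0.82 to 1.40) and 1.13 (0.88 to 1.39). There Smad7 was at 77.0 CPM (68.7 to 85.9) in cluster 1, 46.4 (42.6 to 50.4) in cluster 0 and 35.8 (30.3 to 41.98) in cluster 2. Skil followed the same order, at 99.9 CPM (90.4 to 110.0), 65.7 (61.2 to 70.5) and 45.6 (39.3 to 52.5). No neighbouring intervals overlapped for either gene in D. Early-response transcripts were ordered otherwise, at 2406 CPM in D cluster 1, 3361 in cluster 0 and 1834 in cluster 2.

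UMIs of the receptors and of Ltbp1 were counted in every cluster. Tgfbr2 was at 28.9 CPM in P cluster 0, 27.1 in cluster 3, 17.0 in cluster 1 and 12.3 in cluster 2, and at 79.4 CPM (71.0 to 88.5), 54.9 (48.0 to 62.4) and 35.1 (31.8 to 38.6) in D clusters 1, 2 and 0. Tgfbr1 ranged from 7.22 CPM to 13.9 CPM in P with overlapping intervals, and from 16.2 to 26.5 CPM in D, where only clusters 1 and 2 were separated. Ltbp1 ranged from 6.68 CPM to 14.2 CPM in P and from 99.0 to 146.1 CPM in D, with D clusters 1, 0 and 2 in that order and separated. Its lowest level in D was thus above its highest in P. After thinning, the share of cells with Ltbp1 was between 0.594% and 2.84% in the P clusters and between 18.7% and 26.6% in those of D, while the lowest share of Tgfbi was 0.228%, in D cluster 0.

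**Figure D3:**
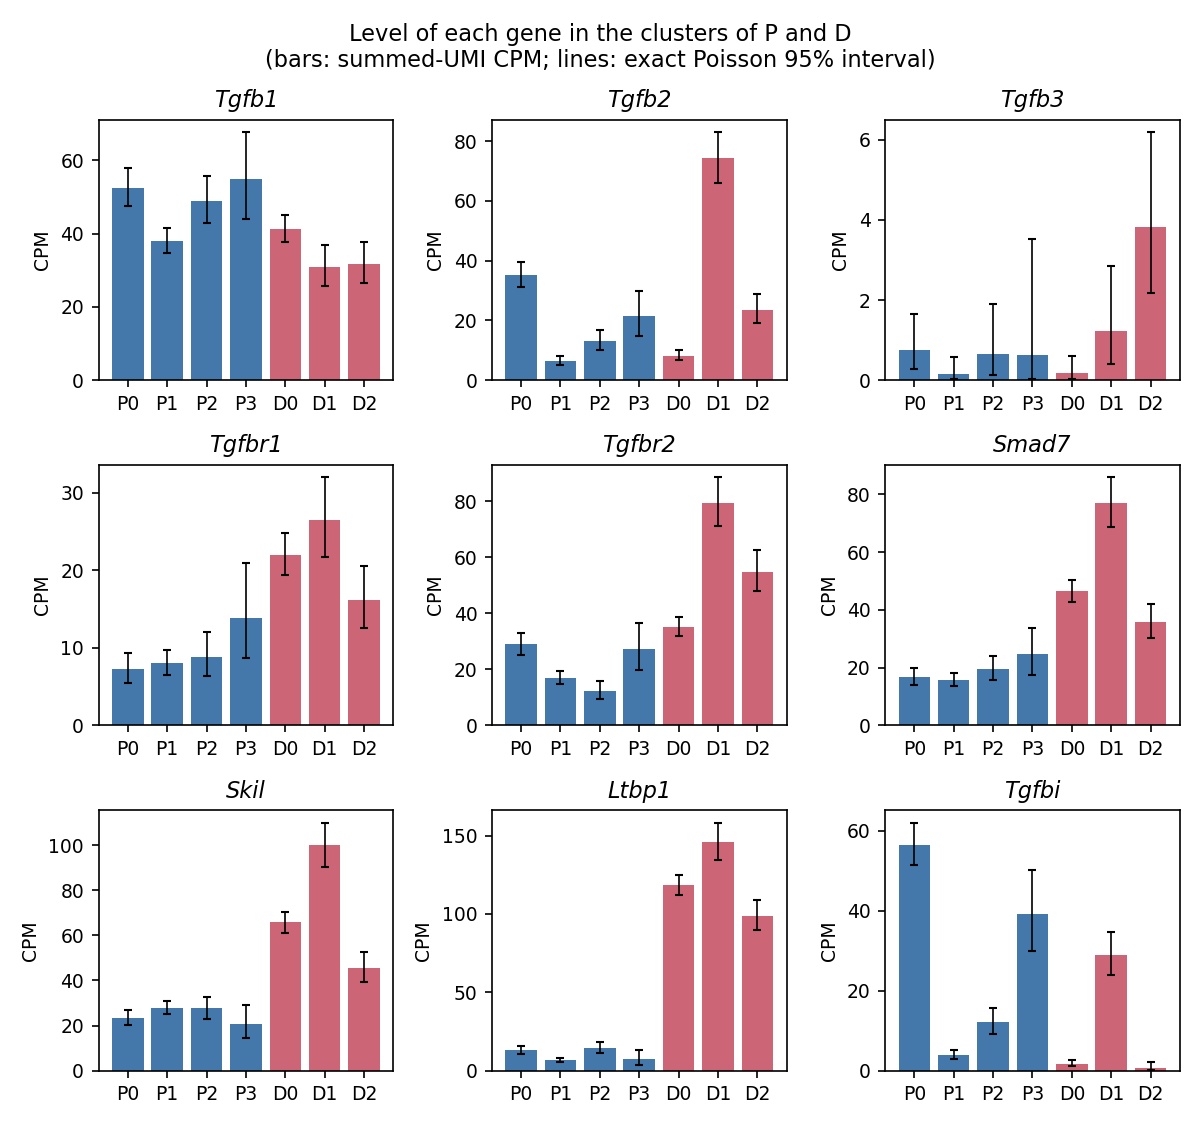
Level of each gene in CPM in the 4 clusters of P (P0 to P3, blue) and the 3 of D (D0 to D2, red), with exact Poisson 95% intervals and each axis starting at 0. Tgfbi and Tgfb2 peaked in P0 and D1, at 56.5 and 29.0 CPM and at 35.2 and 74.3 CPM, whereas Ltbp1 was at 99.0 CPM or more in each cluster of D.

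Markers of other cell types were read in the same clusters, since stromal cells also make TGF-β transcripts. Of 6 fibroblast markers, 3 were detected in P and 5 in D, with 53 UMIs in P and 1270 UMIs in D, of which 1234 were Dcn. Col1a2 was at 0 in both libraries and Col1a1 had 0 and 10 UMIs. Col3a1 had 0 and 19 UMIs, Pdgfra 6 and 6, and Lum 7 and 1. The summed list ranged from 0.557 CPM to 4.44 CPM over the P clusters and was 23.2, 233 and 8.35 CPM in D clusters 0, 1 and 2, so it was highest where Tgfb2 and Tgfbi were. Of 6 leukocyte markers, 5 were detected in P and 4 in D, with 31 and 411 UMIs (400 of Laptm5 in D, and 1 and 2 of Ptprc). Tyrobp was at 0 in both. Without the cells that held a UMI of Dcn or Laptm5, which left 3944 cells of D, the same 6 genes were past 2-fold between the libraries, Tgfb2 was at a log2 ratio of 0.35 in place of 0.54, and Tgfbi and Tgfb2 were at 5.51 and 2.63 in D cluster 1 over the other D cells, where Tgfbi no longer reached 100 UMIs. The endothelial genes Cdh5, Kdr and Tek were at 0 in both libraries.

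Both libraries were also clustered jointly, without the genes that differed 2-fold between them and without the TGF-β genes. Of 4 joint clusters, 3 held at least 200 cells of each library. Joint cluster 0 (3090 P and 2783 D cells) took in most of P cluster 2, of D cluster 0 and 1711 of the cells of P cluster 1. Joint cluster 1 (2554 and 1314 cells) took in most of P cluster 0 and D cluster 1, and joint cluster 2 (829 and 765 cells) the rest of P cluster 1 with most of D cluster 2. The median gene was at log2 ratios of 0.42, 0.51 and 0.31 in them. The P and D cells of a joint cluster were not fully matched in state. Luminal markers were at 13.1 CPM in P and 847 CPM in D in joint cluster 0, and at 85.9 and 3836 CPM in joint cluster 2. Basal markers summed to 8455 CPM in P and 16434 CPM in D in joint cluster 1. Krt5 and Krt14 had the most UMIs of the 7 basal genes in both libraries. Over all kept cells, 1 of the 7 (Krt14) was at least 2-fold higher in D and 0 were in P. Trp63, below that threshold, was lower in D, with 3982 UMIs in P and 1579 in D. The sum therefore does not describe each basal marker.

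At least 2-fold higher levels in D, with at least 100 UMIs in all 3 joint clusters, were found for 3 genes, Tgfbr2, Smad7 and Ltbp1. Tgfbr1 also exceeded 2-fold in each, but had 77 UMIs in joint cluster 2. The share of genes at least 2-fold higher in D was 13.1%, 16.4% and 19.7%. Ltbp1 was at log2 ratios of 3.61 (3.35 to 3.88), 3.44 (3.14 to 3.75) and 4.44 (3.74 to 5.23) in joint clusters 0, 1 and 2, and Tgfbr2 at 1.33 (1.08 to 1.58), 1.48 (1.23 to 1.73) and 1.33 (0.96 to 1.71), with overlapping intervals. Tgfbr1 was at 1.27, 1.82 and 1.74. With the median of each joint cluster removed, Ltbp1 alone stayed past 2-fold in all 3, at 3.19, 2.93 and 4.13. Tgfbr2 was then at 0.91, 0.97 and 1.02 and Tgfbr1 at 0.85, 1.30 and 1.43.

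The difference in the feedback inhibitors was larger in joint cluster 1. Smad7 was at 2.16 (1.87 to 2.47) in joint cluster 1, 1.495 (1.27 to 1.72) in joint cluster 0 and 1.02 (0.57 to 1.47) in joint cluster 2. Skil was at 2.09 (1.84 to 2.35), 1.28 (1.10 to 1.46) and 0.55 (0.19 to 0.91), so that it stayed under 2-fold in joint cluster 2. For both genes the interval of joint cluster 1 did not overlap those of the other clusters. With the median removed, Smad7 was at 1.65, 1.08 and 0.71 and Skil at 1.58, 0.86 and 0.24 in joint clusters 1, 0 and 2, so that both were past 2-fold in joint cluster 1 and neither in joint cluster 2. Early-response transcripts went from 1100 CPM in P to 2506 CPM in D in joint cluster 1, from 1418 to 3301 in joint cluster 0 and from 1352 to 1817 in joint cluster 2, and their part in these results was not tested.

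The ligands separated by cluster. Tgfb2 was at 0.06 (−0.32 to 0.43) in joint cluster 0, 1.03 (0.78 to 1.27) in joint cluster 1 and 1.86 (1.18 to 2.60) in joint cluster 2, from 23 UMIs in P and 82 UMIs in D in the last. Tgfb1 was at 0.03 (−0.15 to 0.20), −0.73 (−1.03 to −0.44) and −0.49 (−0.87 to −0.13). Tgfbi was at −2.11 (−2.86 to −1.42) in joint cluster 0 and −0.96 (−1.27 to −0.67) in joint cluster 1, and had 9 UMIs in P and 0 in D in joint cluster 2. In joint cluster 0, removing the median turned Tgfb1 and Tgfb2 negative, to −0.39 and −0.36. In joint cluster 1 it left Tgfb2 at 0.51, below 2-fold, and took Tgfb1 to −1.25 and Tgfbi to −1.48, both past it. Joint cluster 2 kept Tgfb2 past 2-fold with its median removed, at 1.55, with Tgfb1 at −0.80.

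**Figure D4:**
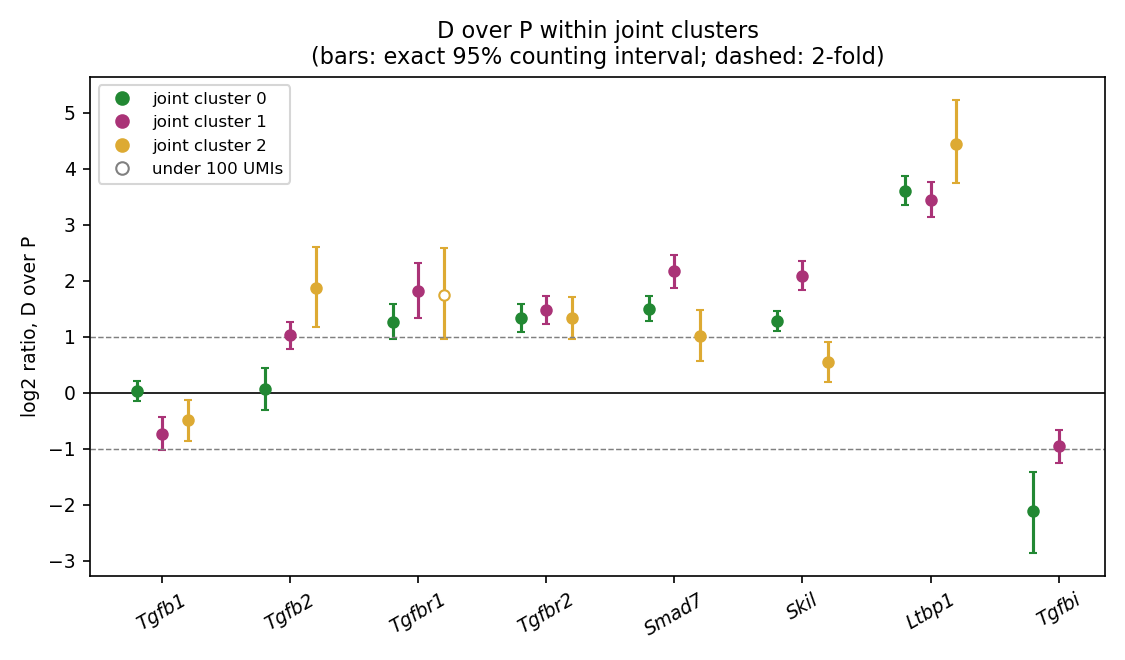
Log2 ratio of D over P for 8 of the genes within joint clusters 0 (green), 1 (purple) and 2 (yellow), with exact conditional 95% intervals, dashed lines at 2-fold and an open circle for values from under 100 UMIs. Ltbp1 lies between 3.44 and 4.44 in all 3, and Skil is at 2.09 in joint cluster 1 and 0.55 in joint cluster 2.

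Other genes of the pathway were read from a list of 52, of which 37 reached 100 UMIs. In D 14 of them were at least 2-fold higher, against 13.5% of all genes, and 2 were higher in P, against 4.73%. The median log2 ratio over the list was 0.73, against 0.41 over all genes tested. With the shift removed, 8 were higher in D and 4 in P, against 5.64% and 8.65% of all genes, and the median was 0.31.

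The other feedback genes accounted for 5 of the 14, namely Pmepa1, Tgif1, Ski, Bambi and Smad6, of 8 tested. Pmepa1, which sequesters receptor-activated Smads and is itself a Smad target, had 30.9 CPM in P and 564 CPM in D, a log2 ratio of 4.19. Within D it was at 1018 CPM in cluster 1, 459 in cluster 0 and 421 in cluster 2, with cluster 1 highest, as for Smad7 and Skil. In P, by contrast, Pmepa1 was lowest in cluster 0, which had the most basal markers, at 17.9 CPM, and highest in cluster 1, at 41.7 CPM. The co-repressors Tgif1 and Ski were at log2 ratios of 1.19 and 1.15, and the intervals of Bambi and Smad6 reached below 2-fold. With the shift removed, Pmepa1 was at 3.77 and the other 4 fell below 2-fold, Tgif1 at 0.77, Ski at 0.73, Bambi at 0.64 and Smad6 at 0.63.

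The Smads that carry the signal stayed below 2-fold, at log2 ratios of 0.98 for Smad3, 0.86 for Smad2 and 0.33 for Smad4. Of 6 latency and activation genes tested, Itgb6 and Thbs1 were higher in D. Itgb6, the integrin chain that with Itgav releases latent TGF-β in epithelia, had 28.7 CPM in P and 84.7 CPM in D, and 195.6 CPM in D cluster 1. Thbs1, a matrix protein that can also activate the ligand, was at a log2 ratio of 1.38, and Itgav at 0.51. With the shift removed, Itgb6 was at 1.14 and Thbs1, at 0.96, was no longer past 2-fold. Acvrl1, a type I receptor best known from endothelium, was past 2-fold higher in P, at a log2 ratio of −1.24 (−1.73 to −0.77). Its highest level over the P clusters was in cluster 0, at 9.25 CPM, where the summed endothelial list also peaked. The part of endothelial cells in the Acvrl1 values was not tested. Acvr1b, an activin receptor, was at 0.02. Among activin genes, Inhbb was at 1.65, Inhba at 0.82 and Acvr2a at 0.55.

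Of 14 target genes tested, 6 were higher in D and Igfbp3 was higher in P, at 164 CPM against 42.2 CPM. Acta2, the smooth muscle actin, had 28 UMIs in P and 837 UMIs in D, 747 of which lay in D cluster 1. Fn1, the matrix protein fibronectin, had 24 UMIs in P and 464 UMIs in D, with 375 in that cluster, and Ctgf had 63 and 742 UMIs. Their log2 ratios were 5.30, 4.67 and 3.95. Acta2 and Fn1 are also made by stromal cells. D cluster 1 had the highest summed level of the fibroblast list, but Dcn made up 1234 of its 1270 UMIs in D. The smooth muscle list summed to 11 UMIs in P and 6 in D. The part of other cell types in these values was not tested. Cyr61 was also among the 6, at a log2 ratio of 2.86, and was highest in D cluster 1, at 164 CPM. The cell cycle inhibitors Cdkn2b, at 63.8 and 202 CPM, and Cdkn1a, at 119 and 273 CPM, were named after their values were seen. With the shift removed Cdkn1a was at 0.78, below 2-fold. Both inhibitors were lowest within D in cluster 1. Cdkn1a was at 88.2 CPM there, 285 in cluster 0 and 421 in cluster 2, and Cdkn2b at 123, 170 and 373 CPM. Targets therefore did not move as 1 group.

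**Figure D5:**
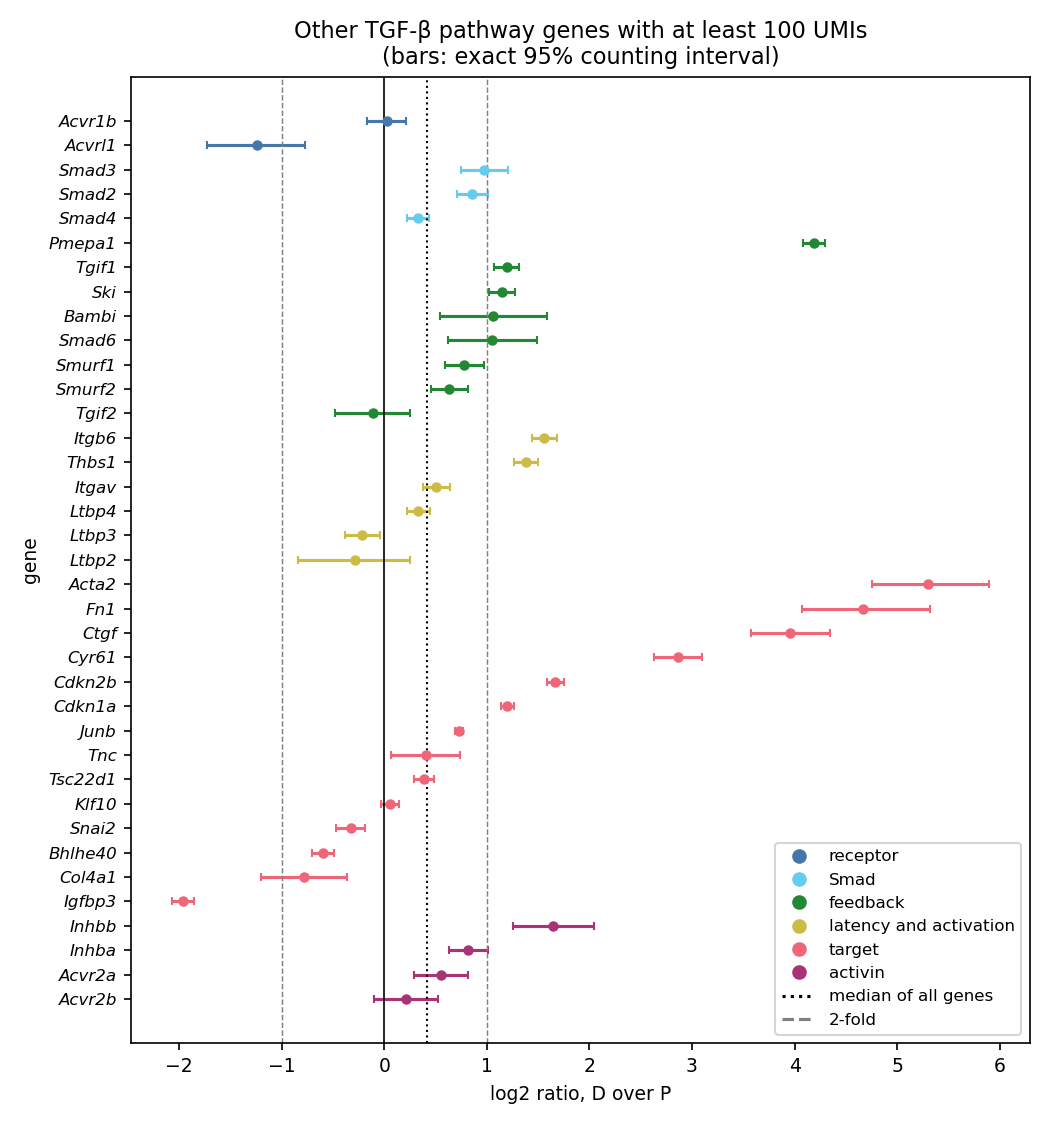
Log2 ratio of D over P for the 37 other pathway genes with at least 100 UMIs, coloured by role, with exact 95% counting intervals, dashed lines at 2-fold and a dotted line at the median of all genes, 0.42. Acta2 (5.30), Fn1 (4.67) and Pmepa1 (4.19) lie farthest to the right and Igfbp3 (−1.96) farthest to the left.

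The genes most like each member over the 7 clusters, by Pearson r of log2(CPM + 1), are given as a description, since the clusters come from 2 libraries that share depth and scaling. Pearson r does not depend on the size of a difference, so a gene named here need not share that of the member. Ncor1, for example, had 4030 UMIs in P and 3855 in D. What drives the likeness was not tested. Ltbp1 was closest to Clcn4 (r = 0.999), Vcpip1 and Dnajc11, Smad7 to Spindoc (0.998) and Ncor1, and Skil to Atad2b (0.993), Ube3a and Mark3. Tgfbr1 was closest to Ikzf5 (0.996), Ids and Blzf1, and Tgfbr2 to Sox9 (0.995), Myo1e and Upf3a. Tgfbi was closest to Hspg2 (0.996), the basement membrane proteoglycan perlecan, then Cables1 and Rab34. Tgfb1 was closest to Ndrg3 (0.977), Phlda2 and Plpp3, and Tgfb2 to Stbd1 (0.982), Haghl and Zfp580.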

How the data were processed

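Organoid cells were loaded on the 10x Genomics platform (3′ chemistry), with 1 library for P and 1 for D. The submitters' processing notes name bcl2fastq 2.19.0 and Cell Ranger 3.0.2 with the GRCm38 (mm10) mouse build. The deposited matrices hold raw UMI counts, whole numbers that were not normalized, for 31053 genes.

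Cells with over 800 genes and at most 12% mitochondrial UMIs were kept, as in the study's methods. UMIs were summed per library or cluster and given as CPM. With 1 library per condition no test was possible. Intervals (exact Poisson, Clopper-Pearson and conditional binomial, all 95%) cover counting error only. Ratio and interval code was tested on simulated data. The members and lists were chosen with earlier results of these data known. The text names all members, the 3 list genes with the largest ratio in each role, the 3 genes most like each member and the 5 leading genes of each cluster; other genes are said to be chosen later or complete a count. One gene that the likeness rule names is not reported here.

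Clustering used Seurat 5.3.0 in R 4.3.3 (2000 variable features without the TGF-β genes, 25 components in P and 21 in D, resolution 0.2) and joint clustering its canonical correlation integration (25 dimensions, resolution 0.17). Scrublet in scanpy 1.11.5 marked 0 cells as doublets, so the 6% of cells with the highest scores were left out in an alternative instead. Doublets were not removed otherwise. Python 3.11.15, numpy 2.4.6, scipy 1.17.1 and pandas 2.3.3 were used. Alternatives covered scaling, cell filter, thinning depth, thresholds, doublet scores, early-response share, cell type markers and clustering.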

Additional observations from a re-analysis of the deposited data

Results flagged for a closer look

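Tgfb1 lay on opposite sides of 0 in the cluster with the most basal markers of each library. The log2 ratio over the other cells was 0.32 (0.14 to 0.49) in P cluster 0 and −0.33 (−0.61 to −0.05) in D cluster 1. At resolution 0.4 the P value was 0.09. Both differences are small, and the difference between them was not tested, since each condition had 1 library.

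The barcodes left out by the filter on genes and mitochondrial UMIs (1376 in P and 2079 in D) also held transcripts of these genes, counted per 1000000 UMIs without mitochondrial ones. In the D barcodes left out, Ltbp1 was at 204 (185 to 225), against 13.6 in those of P and 129 in the kept D cells. Skil was at 151 (135 to 169) against 43.2 in P and 73.7 in kept D cells, and Smad7 at 115 (101 to 131) against 31.6 and 54.2. Tgfbr2 was at 63.2 (52.9 to 75.0) against 28.6 and 51.8, and Tgfbr1 at 50.7 (41.4 to 61.3) against 10.0 and 23.4. All 5 were thus higher in the left-out D barcodes than in the left-out P barcodes. Ltbp1, Skil, Smad7 and Tgfbr1 were above the level of the kept D cells by more than counting error. So was Tgfb2, at 41.5 (33.2 to 51.3) against 26.6, but not Tgfb1, at 35.7 (28.0 to 44.8) against 40.1. Such an excess was not particular to D. In the left-out P barcodes Skil was at 43.2 (34.5 to 53.3) against 27.7 in kept P cells. Smad7 was at 31.6 (24.3 to 40.5) against 18.3 there, and Tgfbi at 36.1 (28.3 to 45.5) against 24.4.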

How the results depend on the processing

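Directions of the 8 genes between P and D were the same under every scaling and cell set tried, and the same 6 genes were past 2-fold under all cell sets. Scaling by the median ratio left 3 of them (Smad7, Ltbp1 and Tgfbi), and leaving mitochondrial and ribosomal protein genes out of the total left 5, without Tgfbr2 at 0.91. In D, the rule for the basal-side cluster gave 2 genes past 2-fold, but 0 at resolution 0.4, where it took another cluster of 750 cells. With no cluster left out, an alternative chosen after the data were seen, the log2 ratios of the basal-side cluster over the rest reversed to 2.61 for Tgfb2 and 4.29 for Tgfbi. In that cluster the count of 2 fell to 1 without cells with a UMI of Dcn or Laptm5, since Tgfbi then had under 100 UMIs. The pathway list held 16 genes past 2-fold, 12 under both other scalings and 24 at a fold of 1.5. The planned removal of cells called doublets could not be made because Scrublet called 0. No replicate could be left out and no paired analysis was possible because each condition had 1 library. Depth limited Tgfb3, Tgfbr1 and Tgfbi in the smaller clusters.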
